A study of Mus musculus with 14 samples.

Results

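H3K4me1 chromatin of XEN cells was compared with H3K4me1 chromatin of retinoic acid-treated cells, for the amount of DNA recovered (occupancy) and for its cytosine methylation (5mC), over 200-bp bins of the mouse genome (mm9). All cells came from R1, a line of mouse embryonic stem cells (ESCs). The retinoic acid cells (RA) had been grown without LIF for 4 days with 1 µM retinoic acid, and 1 file of counts was used, called a library here. It was not clear if that file is a single repeat or a pool of repeats. The XEN cells, named for extraembryonic endoderm, had been grown for 9 days with retinoic acid at 0.1 µM together with Activin A at 10 ng/mL, and 2 replicate libraries were used. Length of culture, medium, dose and cell state therefore changed together and cannot be told apart. The titles of the XEN samples end in PE and that of RA does not, and the XEN files differ from it in column order and in the lowest count listed, so library preparation and processing cannot be told apart from cell state either. Chromatin had been cut with MNase, precipitated and treated with bisulfite (ChIP-BS-seq). The members were the 318793 bins with at least 30 CpG counts (methylated plus unmethylated) in RA and at least 30 in the 2 XEN libraries summed, out of 7282466 bins listed in any ChIP-BS-seq file of the series.

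H3K4me1 is a histone H3 with one methyl group on lysine 4, a modification that flanks enhancers before and during their activity. Acetylation of lysine 27 (H3K27ac) comes with the activity itself. 5mC at CpG sites is laid down by DNMT enzymes and removed through TET enzymes, and active enhancers usually carry less of it than the rest of the genome. Extraembryonic endoderm is the lineage of the yolk sac, separate from the embryo proper, whereas retinoic acid without further sorting gives a mixture of cell states. Reading 5mC on precipitated DNA gives the methylation of those copies that carry the mark.

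The sample labels call both XEN libraries H3K27Ac, while their files are named H3K4me1. The other XEN pair has the opposite conflict. Over 462971 bins with at least 30 counts in either RA library, the counts of XEN replicates 1 and 2 had Spearman correlations of 0.598 and 0.645 with RA H3K4me1, and of 0.172 and 0.136 with RA H3K27ac. The other XEN pair had 0.0662 and 0.0545 with RA H3K4me1, and 0.663 and 0.682 with RA H3K27ac. DNA in RA peaks of H3K4me1 alone made up 16.7% and 17.6% of the counts of the XEN libraries, against 21.7% in RA H3K4me1 and 5.49% in RA H3K27ac. DNA in RA peaks of H3K27ac alone made up 2.29% and 2.42%, against 1.72% in RA H3K4me1 and 17.4% in RA H3K27ac. By its distribution over bins and peaks, the XEN pair thus resembled the mark in the names of its files and not the mark in its labels. If the labels hold, the comparison below is one of 2 marks as well as of 2 cell states. In what follows "XEN replicate 1" and "XEN replicate 2" are the libraries labelled H3K27Ac.

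Depth was 47177841 CpG counts in RA, 22746494 in XEN replicate 1 and 31345707 in XEN replicate 2. The XEN files list no bin with fewer than 4 counts, and the RA file lists bins down to 1. The median member had 51 counts in RA, 29 in XEN replicate 1 and 39 in XEN replicate 2. Each XEN library also held a few bins with very many counts, up to 31043 and 51510, against 655 in RA, but bins over 500 counts held only 0.423% and 0.563% of the XEN counts. Of the members, 98.9% overlapped an RA H3K4me1 peak and 86.1% an RA H3K27ac peak. The XEN replicates were taken as separate libraries, as labelled, and list 1453984 and 1831848 bins. Their total counts over the members had a chi-square per degree of freedom of 2.32, but counts that share a read raise this value too, so it does not measure how far they differ beyond sampling noise. The labels do not say whether they came from separate cultures.

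5mC was higher in both XEN libraries than in RA. Over the whole library, 5mC was 54.8% in RA, 61.5% in XEN replicate 1 and 61.5% in XEN replicate 2. In the other XEN pair, which is labelled H3K4me1, it was 47.9% and 49.2%, below RA. The direction over whole libraries thus depends on which pair is taken as H3K4me1. Exact 95% intervals reached at most 0.0200 points to each side, and such intervals cover counting error only. The XEN mean was 61.5% ± 0.0219 (SD, n = 2), 6.66 points above RA. With 1 library against 2, the two-sided exact permutation test gave p = 0.333, the smallest p this design allows. With only bins of at least 4 counts in each library, the listing rule of the XEN files, the difference was 7.42 points.

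Over the members, the median 5mC was 52.1% in RA and 62.5% in each XEN library. Bins under 20% 5mC (unmethylated regions) were 17.9% of the members in RA, 12.1% in XEN replicate 1 and 11.9% in XEN replicate 2. Bins over 80% were 9.04% in RA, 21% and 20.0% in the XEN libraries. The whole distribution was moved upwards, with fewer bins at every 5-point class below 60% and more above 70%. The mean over the members was 8.67 points higher in the XEN libraries than in RA, 8.79 in replicate 1 and 8.55 in replicate 2. 5mC was higher in the summed XEN libraries in 75.7% of the members and lower in 23.5%.

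**Figure D1:**
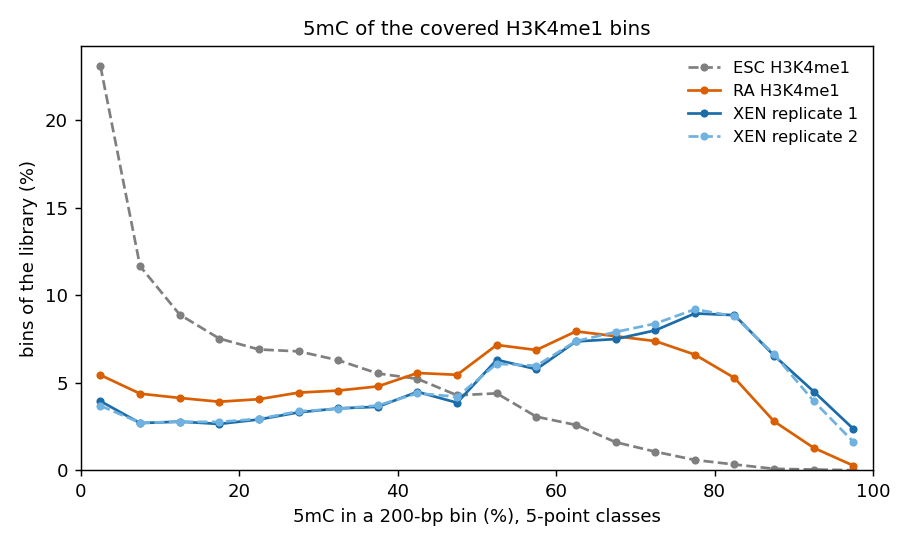
Share of bins (y axis, %) in each 5-point class of 5mC (x axis, %) in RA H3K4me1, in each XEN library and, for the 168612 members with at least 30 counts there, in ESC H3K4me1. Both XEN curves lie over each other and to the right of RA, whose median was 52.1% against 62.5% in each XEN library.

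Per bin, 5mC was compared between RA and the summed XEN libraries with Fisher's exact test and Benjamini-Hochberg adjustment over all members. At an adjusted p under 0.05 and a difference above 20 points, 36314 bins had higher 5mC in XEN (11.4% of those tested) and 1289 had lower 5mC (0.404%). By the adjusted p alone, 43058 were higher (13.5%) and 1776 lower (0.557%). In the bins with higher 5mC, the median was 35.3% in RA, 67.7% in XEN replicate 1 and 67.3% in XEN replicate 2. In the bins with lower 5mC it was 60% in RA, 30.2% in XEN replicate 1 and 29.2% in XEN replicate 2. Each XEN library taken alone differed from RA by more than 20 points in 27641 and 928 of them, and had the direction of the sum in 36222 and 1286. The bins were called on the sum of these libraries against the same RA library, so this direction is largely fixed by the call. Since fewer bins reach 30 counts in 1 library, 22711 and 899 bins were called without XEN replicate 1 (10.4% and 0.410% of the bins then tested), and 17272 and 649 without XEN replicate 2 (10.9% and 0.410%).

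These tests compare libraries. Several CpG counts can come from 1 read, so the counts are not independent, and the p-values may be too small by an amount that was not tested. The replicates were compared with each other in the same way. In the 148291 members with at least 30 counts in each XEN library, the same test between the replicates called 4 bins in one direction and 0 in the other. In the same bins, RA against XEN replicate 1 called 16393 bins higher and 629 lower in XEN, and RA against XEN replicate 2 called 17954 and 729. Differences above 20 points between the replicates, before any test, were seen in 2.24% of these bins in one direction and 2.03% in the other, against 18.3% and 1.19% between replicate 1 and RA. In edgeR's quasi-likelihood test on the methylated and unmethylated counts, which takes the spread from the single XEN pair, no bin passed at an adjusted p under 0.05, while 61955 had an unadjusted p under 0.05 (58620 higher and 3335 lower in XEN). With edgeR's likelihood ratio test and 1 common dispersion, added after seeing the data, 27595 bins were higher and 814 lower.

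**Figure D2:**
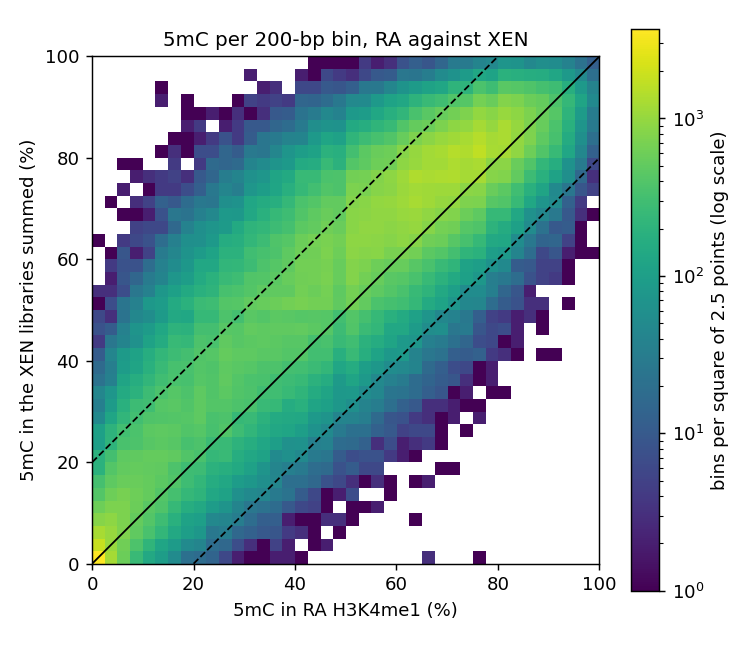
5mC of each member in RA (x axis, %) and in the summed XEN libraries (y axis, %), as the number of bins per square on a log colour scale. The solid line marks equal 5mC and the dashed lines a difference of 20 points; most bins lie above the solid line (75.7%), and the squares beyond the upper dashed line hold many more bins than those beyond the lower one.

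The members were also split by coverage. In members with 30 to 49 counts in the shallower of RA and summed XEN, the median difference was 7.31 points. It was 8.37 points at 50 to 99 counts, 9.20 points from 100 counts to under 200 and 9.60 points in the 609 bins with 200 or more. In those 609 bins, 84.6% had higher 5mC in XEN, 86 were called higher and 0 lower. Around the coverage limit itself, the median difference was 6.98 points in the 61428 bins just inside (30 to 34 counts) and 6.67 points in the 81215 bins just outside (25 to 29 counts).

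The difference varied with the level of 5mC in RA, although the RA value enters both the grouping and the difference. Bins under 20% in RA had a median of 8.89% there, 15.8% in XEN replicate 1 and 16% in XEN replicate 2. Bins at 20 to 40% in RA had a median of 30.3% there, 44.0% in XEN replicate 1 and 43.8% in XEN replicate 2, and 22.3% of them were called higher. At 60 to 80% in RA the medians were 69.6%, 76.9% and 76.5%. Over 80% in RA they were 84.8%, 85.4% and 85.2%, and only 45.5% of the bins were higher in XEN. Of the 56978 members that were unmethylated regions in RA, 33380 (58.6%) were under 20% in the summed XEN libraries too, 23586 lay between 20 and 80%, and 12 lay over 80%. Of these 23586, 20351 were in the same class in XEN replicate 1 and 21011 in XEN replicate 2. In the opposite direction, 3783 of 232996 bins between 20 and 80% in RA (1.62%) were under 20% in XEN, and 0 of 28819 bins over 80% in RA were.

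ESC H3K4me1, 1 library of the same line after 2 days without inhibitors of MEK and GSK3, was not used to choose the members or to call bins. In the 86337 members under 20% 5mC in ESCs (median, 5.88%), the median was 23.3% in RA and 40% in each XEN library. Of these bins 44.3% were still under 20% in RA, 27% in XEN replicate 1 and 26.8% in XEN replicate 2. In the 81600 members at 20 to 80% in ESCs (median, 38.6%), the median was 60.4% in RA, 71.4% in XEN replicate 1 and 71.1% in XEN replicate 2. Higher 5mC in XEN than in RA was called in 21.6% of the first class and 11.4% of the second. By their medians, sites that were unmethylated in ESCs thus had intermediate 5mC in RA and the highest in the XEN libraries. The ESC value set these classes, so the low place of ESCs, and part of the rise from it, follows from the grouping. The order of RA and XEN does not.

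The bins called in the 2 directions differed in their ESC readings. Of the bins with higher 5mC in XEN, 77.1% had at least 30 counts in ESC H3K4me1, against 52.9% of all members, and their median was 12% in ESCs, 33.7% in RA, 66.7% in XEN replicate 1 and 65.9% in XEN replicate 2. Of the bins with lower 5mC in XEN, 30.8% had that coverage, and their median was 35.6% in ESCs, 55.8% in RA, 27.4% in XEN replicate 1 and 26.9% in XEN replicate 2. The order of RA and XEN in each set is fixed by how the bins were called, and choosing bins with low RA or high RA values also moves RA against ESCs, so these orders are a description.

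Peaks split the members in a similar way. In RA H3K4me1 peaks that were also ESC H3K4me1 peaks (237109 bins), the median was 48.4% in RA and 61.3% and 61.1% in the XEN libraries, and 13.7% of the bins were called higher in XEN. In RA H3K4me1 peaks without an ESC peak (78315 bins), the median was 61.3% in RA and 66.7% in each XEN library. There 4.34% were called higher, and 0.715% lower, against 0.297% lower in the peaks shared with ESCs. The split by RA H3K27ac peaks gave close values, where 11.5% of the bins in peaks of both marks and 10.9% of those in H3K4me1 peaks alone were called higher. Only 815 members lay in an RA H3K27ac peak alone, and these had low 5mC in all 3 libraries, with medians of 4.76% in RA and 9.09% in each XEN library.

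Around the centres of RA H3K4me1 peaks up to 3 kb long, 5mC ran in parallel in RA and XEN. At the centre, pooled 5mC was 47.5% in RA, 56.5% in XEN replicate 1 and 56.2% in XEN replicate 2. At 1.4 kb downstream of the centre (in genome coordinates) it was 41.2%, 50.9% and 51.5%, and at 3 kb it was 50.5%, 60.4% and 59.9%. These positions rest on different bins, 54171 at the centre, 9992 at 1.4 kb and 15372 at 3 kb. Whether the dip comes from which peaks contribute was not tested. The ESC library ranged only between 25.8% and 29.7% over the same positions. The XEN libraries lay above RA at every distance plotted.

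**Figure D3:**
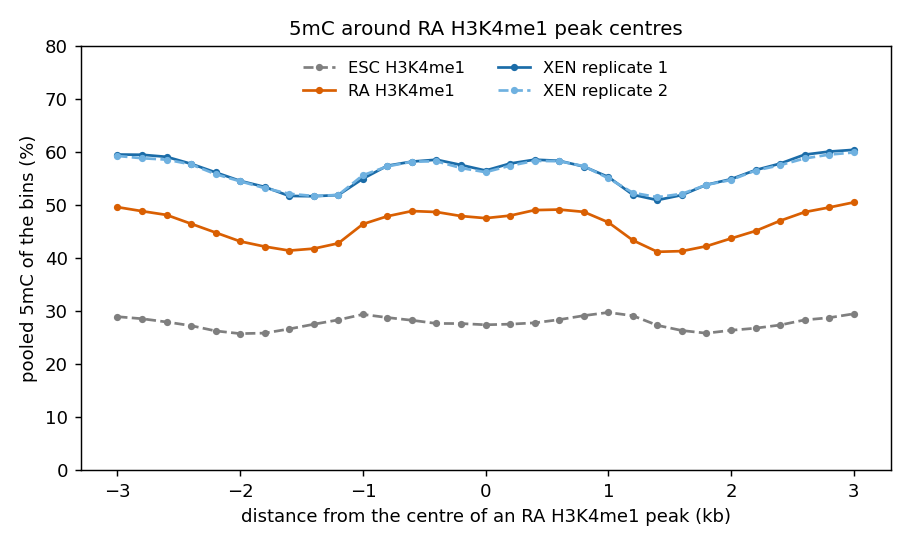
Pooled 5mC (y axis, %) of 200-bp bins with at least 4 counts in RA and in each XEN library, by distance from the centre of an RA H3K4me1 peak (x axis, kb). RA and both XEN curves have the same shape, with XEN above RA at every position (56.5% and 56.2% against 47.5% at the centre), and ESC H3K4me1 lies below them. Positions rest on different bins, from 9907 to 54171 of them.

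The same cells had been measured with the other mark too. In 57228 members with at least 30 counts in the other XEN pair summed and in RA H3K27ac, the median was 37.6% in RA H3K4me1, 48.3% in XEN replicate 1 and 48.4% in XEN replicate 2. The median difference between the summed XEN libraries and RA was 6.27 points there. In the same bins the median was 31.3% in RA H3K27ac and 42.4% in the other XEN pair, with a median difference of 5.68 points. So 73.4% of these bins were higher in XEN in the first pair of libraries and 70.9% in the second, which shares no library with it. Within XEN cells, 5mC was higher in the pair resembling H3K4me1 than in the other pair in 65.8% of the bins, by a median of 3.06 points.

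Called bins of 1 direction at most 1 kb apart were joined. The 36314 bins with higher 5mC in XEN gave 24067 regions, of which 17045 were single bins and 559 had 5 or more bins. The 1289 bins with lower 5mC gave 1192 regions, of which 1106 were single bins and none had 5 or more. The 6 regions with the most called bins in each direction, among those where every called bin differed the same way in both replicates, are given next. The files pair no bin with a gene, and no annotation of mm9 was used, so they are named by position alone. Values are pooled over the called bins of a region, with exact 95% intervals. These regions were chosen for their difference, so their values are a description.

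The longest region with higher 5mC was chr1:155162801-155170800, with 22 called bins, all in RA peaks of both marks. Its 5mC was 30% in RA (28 to 32.2, 1894 counts), 58.6% in XEN replicate 1 (55.5 to 61.7, 979 counts) and 58.6% in XEN replicate 2 (55.8 to 61.4, 1242 counts). In ESC H3K4me1 it was 12.4%. Both XEN libraries thus lay 28.6 points above RA, and the libraries were ordered ESC, RA, XEN. The separation of RA and XEN follows from how the region was chosen, and the intervals cover counting error only.

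At chr9:114437801-114442400 (16 called bins), 5mC was 44.5% in RA, 71.9% in XEN replicate 1 and 71.5% in XEN replicate 2, from 6.04% in ESCs. At chr11:69211001-69215200 (15 called bins), it was 27.5% in RA, 63.6% and 64.7% in XEN, and 5.10% in ESCs. At chr2:174109201-174113600 (15 called bins), it was 32.6% in RA, 67.4% and 60.6% in XEN, and 2.20% in ESCs. All 3 were thus nearly free of 5mC in ESCs, and the last was the one where the XEN libraries were furthest apart among the 6. At chr5:74457001-74463000 (15 called bins), 5mC was 34.4% in RA and 65.7% and 65.0% in XEN. At chr14:99699601-99706800 (15 called bins), it was 42.3% in RA and 66.0% and 70.1% in XEN. Occupancy in these 6 regions went both ways, with log2 ratios to RA from -0.81 to 0.58 in XEN replicate 1 and from -0.61 to 0.58 in XEN replicate 2.

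Regions with lower 5mC in XEN were short. At chr3:128923401-128925000 (4 called bins), 5mC was 45.5% in RA (39.3 to 51.8, 255 counts), 19.7% in XEN replicate 1 (14.8 to 25.5, 228 counts) and 28.4% in XEN replicate 2 (23.0 to 34.3, 257 counts), and 18% in ESCs. At chr6:16804201-16805400 (3 called bins), it was 41.9% in RA, 8.82% in XEN replicate 1 (68 counts) and 7.37% in XEN replicate 2 (95 counts). This region had only 5 counts in ESC H3K4me1 and no ESC peak. At chr2:145612601-145613800 (3 called bins), 5mC was 49.8% in RA, 16.7% and 16.8% in XEN, and 65.1% in ESCs. The XEN libraries were thus below both RA and ESC H3K4me1 at the last of these, while at the first the XEN intervals and the ESC interval overlapped.

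At chr5:33561401-33562200 (3 called bins), 5mC was 66.0% in RA, 34.1% in XEN replicate 1 and 34.2% in XEN replicate 2. At chr8:73288201-73288800 (3 called bins), it was 53.8% in RA and 26.5% and 23.3% in XEN, close to 28.6% in ESCs. At chr7:117791801-117792800 (3 called bins), it was 49.6% in RA and 19.8% and 28.4% in XEN, against 45.6% in ESCs.

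The single called bins with the most counts were also followed. At chr8:125563201-125563400, 5mC was 50.5% in RA (305 counts), 77.4% in XEN replicate 1 (195 counts) and 82.7% in XEN replicate 2 (255 counts), with an adjusted p of 5.32e-14 by Fisher's exact test. At chr13:5802001-5802200 it was 45.9% in RA and 63.4% and 69.1% in XEN, and at chr8:82167601-82167800 it was 52.4% in RA and 73.5% and 73.7% in XEN. In the opposite direction, chr2:145613601-145613800, inside the region above, had 43.9% in RA (171 counts), 13.6% in XEN replicate 1 (66 counts) and 12.8% in XEN replicate 2 (133 counts), with an adjusted p of 2.03e-08. At chr6:70822401-70822600 it was 59.4% in RA and 32.7% and 42.4% in XEN, so replicate 2 alone differed by less than 20 points. At chr12:99953201-99953400 it was 49.7% in RA and 26.6% and 16.2% in XEN.

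**Figure D4:**
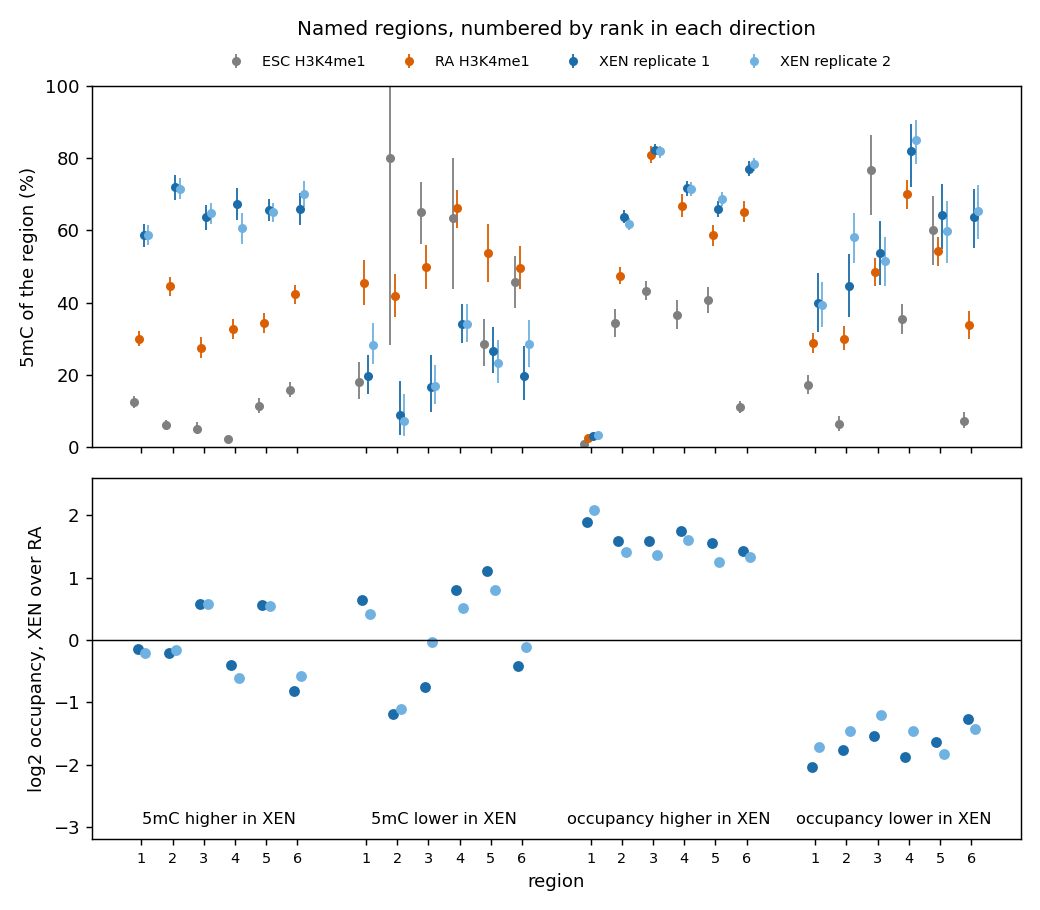
Upper panel, 5mC (y axis, %, exact 95% intervals) of the 6 named regions in each direction in ESC H3K4me1, RA H3K4me1 and each XEN library, numbered by the rank of their called bins; lower panel, log2 occupancy of each XEN library over RA. The XEN libraries stand 23.7 to 37.2 points above RA in the first group and at -34.5 to -17.1 points from it in the second. In all 12 regions of higher or lower occupancy the pooled 5mC of each XEN library was above that of RA. In some of them the intervals of RA and XEN overlap, as at chr17:39979801-39985800 and chr17:87178801-87189200.

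Occupancy, the total CpG counts of a bin scaled by TMM factors, moved in both directions. The log2 ratio to RA was past 2-fold higher in both XEN libraries in 12595 bins (3.95% of the members) and past 2-fold lower in both in 8772 (2.75%). Both ratios use the single RA library, so they are not independent of each other. The ratio was past 2-fold higher in 25775 bins in XEN replicate 1 and 18254 in XEN replicate 2, and past 2-fold lower in 33316 and 20674. For the XEN mean the counts were 18991 higher and 20901 lower, and the lower count was 33316 without replicate 2. The SD of the log2 ratio over the members was 0.658 for the XEN mean against RA. It was 0.565 for replicate 1 against replicate 2, which sets 1 library against 1 and not 2 against 1, so the values are not on equal terms.

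**Figure D5:**
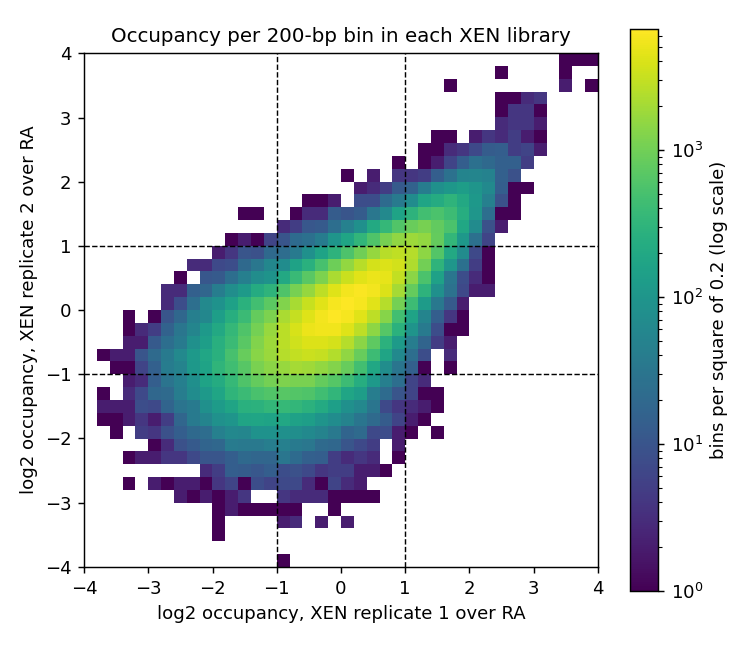
log2 occupancy over RA of each member in XEN replicate 1 (x axis) and XEN replicate 2 (y axis), as the number of bins per square on a log colour scale; 179 bins lie beyond the plotted range. Dashed lines mark 2-fold, and the outer corners at upper right and lower left hold the bins past 2-fold higher and past 2-fold lower in both (12595 and 8772, counted with those beyond the range).

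In edgeR's quasi-likelihood test, with 1 residual degree of freedom from the XEN pair and the RA library assumed to vary like that pair, 13063 bins had higher occupancy in XEN (4.1%) and 6073 lower (1.9%) at an adjusted p under 0.05. These calls were not stable. With median-of-ratios size factors in place of TMM the same test called 7 bins higher and 0 lower, as the prior degrees of freedom went from 32.5 to 6.43, and 56473 bins had an unadjusted p under 0.05 there. The ratios themselves hardly moved: 19508 bins were past 2-fold higher in the XEN mean and 20291 lower, against 18991 and 20901 with TMM factors. DESeq2 called 817 bins higher and 22 lower. With the totals of the files as library sizes, which moved the median log2 ratio from -0.02 to 0.19, edgeR called 28261 higher and 4339 lower, and the share of higher calls went from 68.3% to 86.7%. These totals are not alike, since the XEN files leave out bins under 4 counts. With totals over bins of at least 4 counts in every library, the median log2 ratio was 0.06, and edgeR called 18302 higher and 6059 lower (75.1% of the calls higher). With the totals of the files, 34193 bins were past 2-fold higher in the XEN mean and 10642 lower. TMM and median-of-ratios factors place the middle of the ratios near no change by design. The near balance of gain and loss in the XEN mean under them was thus set by the scaling and is not a result. It was different under the totals of the files. The sets of bins described next are those past 2-fold in both libraries, while the named regions of occupancy further on join bins called by edgeR with TMM factors.

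Bins with higher occupancy in XEN also had higher 5mC in RA. In the 12595 bins past 2-fold higher, the median 5mC was 63.3% in RA, 71.8% in XEN replicate 1 and 71.7% in XEN replicate 2. In the 8772 bins past 2-fold lower, it was 43.9% in RA, 57.1% and 57.7% in XEN. 5mC was thus higher in XEN in both sets, by a median of 6.97 points in the first and 9.89 points in the second, against 7.89 points over all members. Higher 5mC was called in 11.3% of the bins with higher occupancy and in 14.8% of those with lower occupancy, against 11.4% of all members. Across all members the log2 occupancy ratio and the 5mC difference had a Pearson correlation of -0.0569 (318793 bins, all from the same 3 libraries). In the bins called for 5mC, the median log2 ratio of occupancy was -0.03 and -0.05 in XEN replicates 1 and 2 in the bins with higher 5mC, and 0.17 in each in the bins with lower 5mC.

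The ESC library separated the 2 sets again. Bins past 2-fold higher in XEN had a median 5mC of 24.6% in ESC H3K4me1 (7304 bins with at least 30 counts), and bins past 2-fold lower had 14.5% (5918 bins). Of the bins in RA peaks of H3K4me1 alone, 2.79% were past 2-fold higher and 4.02% past 2-fold lower. In RA peaks of both marks, which hold 85.9% of the members, the shares were 4.13% higher and 2.58% lower, close to 3.95% and 2.75% over all members. The shares by peak were computed with TMM factors only. The median log2 ratio was -0.22 and -0.17 in the former and 0.01 in each XEN library in the latter.

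The named regions of occupancy rest on the edgeR calls with TMM factors, while the test with median-of-ratios factors called 7 bins higher and 0 lower in all. The log2 ratios of these 12 regions themselves moved by less than the spread between replicates with those factors. Their values are a description. The region with the most bins of higher occupancy was chr17:39979801-39985800, with 28 called bins. Its counts were 2873 in RA, 6120 in XEN replicate 1 and 9229 in XEN replicate 2, which gave log2 ratios of 1.90 and 2.09. It was almost free of 5mC in every library, with 2.68% in RA, 3.20% and 3.38% in XEN and 0.818% in ESCs, and only 21 of its 28 bins lay in an RA H3K4me1 peak. At chr8:124839001-124848400 (26 called bins) the log2 ratios were 1.59 and 1.41, and 5mC was 47.5% in RA and 63.8% and 61.7% in XEN. At chr17:87178801-87189200 (21 called bins) they were 1.59 and 1.37, and 5mC was 80.9% in RA and 82.3% and 81.8% in XEN. High occupancy in XEN was thus found at intermediate and high 5mC, while low 5mC rests on chr17:39979801-39985800 alone. That region also held 4248 counts in RA H3K27ac, and its log2 ratio in the other XEN pair was 2.04. The higher counts there were thus seen in both XEN pairs, and whether they reflect H3K4me1 was not tested.

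At chr1:136107601-136114400 (19 called bins) the log2 ratios were 1.75 and 1.60, at chr15:77624801-77632600 (18 called bins) 1.56 and 1.25, and at chr6:125426801-125434600 (18 called bins) 1.43 and 1.33. In the last, 5mC was 11% in ESCs, 65.1% in RA and 77.1% and 78.3% in XEN. In the other XEN pair, which resembled H3K27ac, the log2 ratio to the same RA library was 2.04 at chr17:39979801-39985800, 0.04 at chr17:87178801-87189200 and between 0.29 and 0.50 at 3 others. At chr8:124839001-124848400 it was -0.88, so that pair had lower occupancy than RA there.

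The named regions of lower occupancy were shorter, at 1400 to 3400 bp against 6000 to 10400 bp. The coverage rule leaves out bins with few counts in summed XEN or in RA, so it limits the losses and gains that members can show. Bins called lower by edgeR had a median of 99 counts in RA, against 51 over all members. The part of the rule in the lengths was not tested. At chr6:51120001-51122200 (7 called bins) the counts were 1068 in RA, 148 in XEN replicate 1 and 246 in XEN replicate 2, with log2 ratios of -2.05 and -1.71, and 5mC was 28.8% in RA and 39.9% and 39.4% in XEN. At chr6:52112601-52116000 (7 called bins) the counts were 775, 130 and 212, with log2 ratios of -1.77 and -1.47, and 5mC was 6.37% in ESCs, 30.1% in RA, 44.6% in XEN replicate 1 and 58.0% in XEN replicate 2. At chr8:59977401-59978800 (5 called bins) the log2 ratios were -1.27 and -1.42, and 5mC was 7.25% in ESCs, 33.8% in RA and 63.6% and 65.3% in XEN. The last is the one of the 6 where loss of occupancy came with a difference in 5mC above 20 points in both XEN libraries. At chr2:109564401-109567000 (6 called bins), chr10:88899001-88900800 (5 called bins) and chr1:191972201-191973600 (5 called bins) the log2 ratios lay between -1.88 and -1.21.

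Bins left out by the coverage rule showed the same direction of 5mC. In 87146 bins with at least 30 counts in RA but fewer in summed XEN, pooled 5mC was 51.6% in RA, 60.1% in XEN replicate 1 and 59.5% in XEN replicate 2. In 212116 bins with at least 30 counts in summed XEN but fewer in RA, it was 56.8% in RA and 64.0% in each XEN library. Of the former, 3629 were listed in neither XEN file, and of the latter 2607 had no count in RA. The occupancy ratios above do not cover these bins.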

How the data were processed

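ChIP-BS-seq libraries of RA H3K4me1 (1) and XEN cells (2, labelled H3K27Ac, files named H3K4me1) were compared, with 5 other libraries of the series as context. Reads had been aligned by Bismark (with Bowtie), and the authors kept only those in which every CpG had the same state. Per 200-bp bin they deposited 2 counts, of methylated and of unmethylated CpGs, without scaling. The build mm9 is from the submitters' processing notes. The order of the 2 columns was read from the mitochondrial genome and is opposite in the XEN files. The peak lists deposited by the authors carry a HOMER score, of which only the coordinates of the peaks were used, with an overlap of at least 1 bp.

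5mC was methylated over all CpG counts. Fisher's exact test compared RA with summed XEN per bin (adjusted p under 0.05, difference above 20 points). Occupancy was tested with edgeR's quasi-likelihood test (4.0.16, TMM, prior count 1 for log2 ratios) in R 4.3.3 on total counts of the members. Single-library shares have exact 95% intervals. Scripts were tested on simulated data. The alternatives were coverage minimums of 20, 60 and none, a difference of 30 points, other scalings (median-of-ratios factors, file totals, totals over bins with at least 4 counts), DESeq2 1.42.0, RA peaks only, each XEN library left out and the XEN pair labelled H3K4me1. Named regions were the 6 with the most called bins in each direction (called bins at most 1 kb apart joined, the same direction in both replicates), and the 3 single bins in each direction with the highest lower coverage. Chromosome 18 and the mitochondrial genome were not named. Members, classes and lists were chosen with earlier results of these data known. Input, H3K36me and single-cell files, gene names and sequences were not used here. Scripts ran under Python 3.11.15 with numba 0.67.0, scipy 1.17.1, numpy 2.4.6, matplotlib 3.10.9 and pandas 2.3.3.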

Additional observations from a re-analysis of the deposited data

How the results depend on the processing

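Higher 5mC in XEN outnumbered lower 5mC under every alternative that called any bin. The main counts were 36314 higher and 1289 lower. A coverage minimum of 60 gave 16666 and 472, a difference above 30 points gave 16197 and 435, and edgeR's quasi-likelihood test gave 0 and 0. Added after seeing the data, a difference of 20 points around the median difference gave 20445 higher and 1718 lower (11.9 higher for each lower, against 28.2 in the main counts), and edgeR's likelihood ratio test gave 27595 and 814. With the XEN pair that is labelled H3K4me1, 4033 bins were higher and 1242 lower of 89741 tested. Leaving out a XEN library gave 17272 to 22711 higher and 649 to 899 lower, of 158329 to 219412 tested. Other settings (a minimum of 20, none, the adjusted p alone, RA H3K4me1 peaks only, no bins over 500 counts) stayed within 1.5 times both counts. Of these, a minimum of 20 tested 511794 bins (7.68% higher) and no minimum 1196632 (2.64% higher).

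The 6.66 points of the whole libraries became 7.42 in bins with at least 4 counts, and the mean of 8.67 points over the members became 8.16 at a minimum of 20 and 9.48 at a minimum of 60. Leaving out a XEN library gave 6.65 to 6.68 and 8.55 to 8.79. With the XEN pair labelled H3K4me1, 5mC of the whole libraries was 47.9% and 49.2%, below 54.8% in RA, so the direction turned.

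Occupancy calls were not stable. From 13063 higher and 6073 lower in the main fit of edgeR, median-of-ratios size factors gave 7 and 0, DESeq2 817 and 22, totals of the files 28261 and 4339, and totals over bins with at least 4 counts 18302 and 6059. Changing the coverage minimum mostly changed the number of bins tested. A minimum of 20 gave 24025 and 12760 of 511794 (4.69% and 2.49%), and a minimum of 60 gave 4930 and 1959 of 97980 (5.03% and 2.00%). No minimum gave 70430 and 60681 of 1196632 (5.89% and 5.07%). In the main fit the shares were 4.1% and 1.9% of 318793 bins. The pair labelled H3K4me1 gave 6233 and 3301 of 89741 (6.95% and 3.68%). The prior degrees of freedom of the fit moved with the settings, and the cause was not tested otherwise. In the XEN mean, 18991 bins were past 2-fold higher and 20901 lower, 19508 and 20291 with median-of-ratios factors, and 34193 and 10642 with the totals of the files. Leaving out a XEN library gave 18254 to 25775 and 20674 to 33316. With the pair labelled H3K4me1, chr8:124839001-124848400 turned from higher occupancy to a log2 ratio of -0.88. Named regions and bins were recomputed without each XEN library, with that pair (except 1 bin with too few counts) and, for occupancy, with the other scalings of size factors and file totals, and no other changed direction there.

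No paired analysis was possible because RA is 1 file without a replicate number, and it was not clear if that file is a single repeat or a pool. The RA library and the XEN pair limit all tests: no p-value measures the spread between RA cultures.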

Other observations

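The median 5mC difference between XEN and RA lay between 7.12 and 8.44 points on the 19 autosomes and was 8.87 points on the X chromosome. On the X chromosome it was 9.26 points in XEN replicate 1, above the autosomes (at most 8.53), and 8.38 points in XEN replicate 2, within their range (at most 8.39). The median log2 occupancy ratio lay between -0.16 (chromosome 13) and 0.13 (chromosome 8) on the autosomes in XEN replicate 1, and between -0.09 and 0.11 for the same 2 chromosomes in XEN replicate 2. On the X chromosome it was -0.35 and -0.27, below every autosome in both libraries. Of all counts in bins with at least 4, the X chromosome held 1.69% in RA, 1.19% in XEN replicate 1 and 1.30% in XEN replicate 2, against 1.26% in ESC H3K4me1. Chromosome 8 held 5.30% in RA, 6.02% and 5.84% in XEN, and 5.64% in ESC H3K4me1. The cause was not tested.

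CpGs of the mitochondrial genome, where little 5mC is found, were read as methylated in 3.23% of 1176 counts in RA (exact 95% interval, 2.30 to 4.41), in 0 of 734 counts in XEN replicate 1 (0 to 0.501, where 3 counts would be 0.409%), and in 0.242% of 1654 counts in XEN replicate 2 (0.0659 to 0.618). The part of this background in the differences of 5mC was not tested.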
